A study of Mus musculus with 9 samples.

Results

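The genes described here are 10 components of leptin, insulin, GLP-1 and ghrelin signalling: the receptor genes Lepr, Insr, Glp1r and Ghsr, the kinase gene Jak2, the transcription factor gene Stat3, the adaptor genes Irs1 and Irs2, and the feedback genes Socs3 and Ptpn1. They were taken by gene name from the deposited gene table, and each name matched 1 of its 54532 rows. RNA came from the hypothalamus of wild-type male ICR mice, an outbred stock, on postnatal day 21. In HA and HP, dams ate a high-fat high-sucrose diet with 45% of energy as fat. HA pups were injected daily with 4-PBA on postnatal days 4 to 16, and HP pups were injected with PBS on the same days. In LP, dams ate a low-fat diet with 10% of energy as fat and pups were injected with PBS. All 3 groups thus shared the daily injections, and each had 3 libraries. Diets began when the dams were 5 weeks old, 5 weeks before mating, and litters were set to 10 pups. The treatment labels name each diet as that of lactation.

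Leptin from fat, insulin from the pancreas, GLP-1 from the gut and ghrelin from the stomach report energy stores and meals to hypothalamic neurons. The leptin receptor signals through JAK2, which phosphorylates STAT3, and STAT3 drives transcription of Socs3, whose product blocks the receptor. The insulin receptor phosphorylates IRS adaptors, which recruit phosphatidylinositol kinase and AKT, while the phosphatase PTP1B, encoded by Ptpn1, dampens both the insulin and the leptin receptor. The GLP-1 and ghrelin receptors are G protein-coupled, and they act mainly through cyclic AMP and through phospholipase C. In pups the leptin surge of early postnatal life is known to guide the wiring of arcuate neurons.

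Total counts lay between 18226924 and 21823961 per library. All 12 marker genes of the hypothalamus averaged at least 1 CPM (CPM is the count relative to library size, here after TMM scaling between libraries). The 13 meningeal fibroblast markers added up to 1291 CPM in HA replicate 3 and to 670 CPM in LP replicate 3, and to between 113 and 207 CPM in each of the other 7. Dcn, a matrix gene among them, stood at 124 CPM in HA replicate 3 and 45.4 CPM in LP replicate 3. The summed level of 8 striatal markers was 239 to 258 CPM in HA, 241 to 264 CPM in HP, and 372, 492 and 260 CPM in LP replicates 1, 2 and 3. Libraries hold whole tissue, so fewer cells of a type and less RNA per cell cannot be told apart. The sample titles also hold a code whose meaning is not stated. In HA and HP it was Hg13 for replicate 3 and Hg43 for the others. LP had codes of its own, Lg42 and Lg63, and against LP the code and the diet of the dam cannot be told apart.

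The comparison of HA with LP asked how pups of high-fat dams given 4-PBA stood relative to pups of low-fat dams. Glp1r had the largest estimate of the 10 genes, 1.78-fold higher in HA. Irs1 was 1.28-fold higher and Stat3 1.14-fold higher by estimate. None of the 10 passed the main test, edgeR's quasi-likelihood F test with Benjamini-Hochberg adjustment over all 17546 genes tested, for which the share called among all genes was 0%. Of the 10 genes, 3 had an unadjusted p under 0.05, against 6.51% of all genes. DESeq2, run as an alternative, called 1, Glp1r, against 0.176% of the genes it tested, and limma-voom called 0, as it did over all genes (0%).

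Between HA and HP, which differ in the injected compound, edgeR called 0 of the 10 genes, against 0.0114% of all genes. No member had an unadjusted p under 0.05, where 5.42% of all genes did. DESeq2 called 0 as well, against 0.0597% of the genes it tested (0.0256% called higher in HA), with no adjusted p given for Glp1r and Socs3, and limma-voom called 0, against 0.0114% of all genes. Glp1r and Irs2 came nearest. Between HP and LP, which differ in the diet of the dam, edgeR also called 0, against 0.0114% of all genes, DESeq2 called 0, against 0.166% of the genes it tested, and limma-voom called 0, against 0.0114% of all genes. Irs1 and Glp1r had an unadjusted p under 0.05 there, 2 of 10 genes against 6.12% of all genes. HP libraries enter both of these comparisons, and LP libraries enter both comparisons with LP, so the estimates of the 3 comparisons are not independent.

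**Figure D1:**
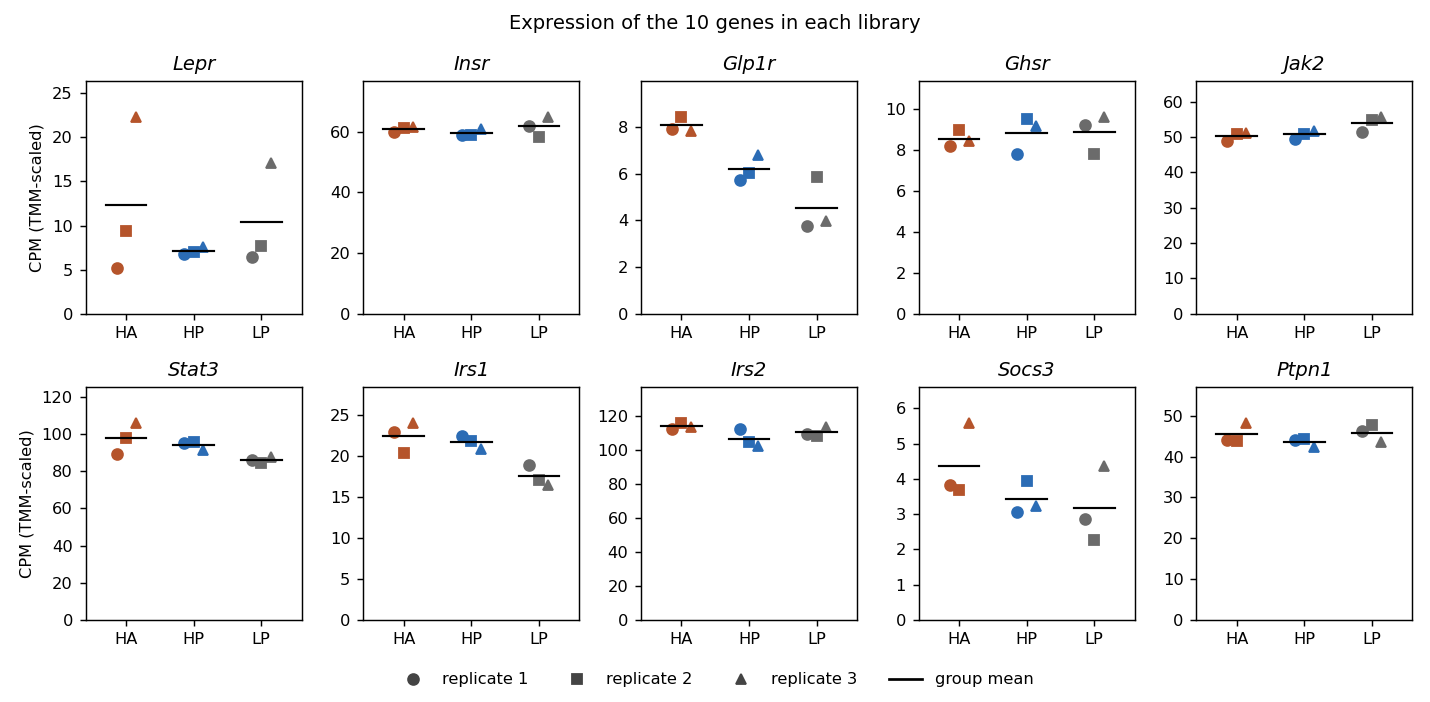
Expression of each of the 10 genes in CPM (TMM-scaled, linear axis from 0) in the 3 libraries of HA, HP and LP, with replicate number as symbol and the group mean as a line. Glp1r averaged 8.07 CPM in HA, 6.18 CPM in HP and 4.53 CPM in LP, while Lepr reached 22.4 CPM in HA replicate 3 and 17.1 CPM in LP replicate 3.

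Promoter sequences are shown for 3 members, Glp1r and Irs1 because they had the smallest p-values, and Socs3 because its transcription is the standard readout of STAT3. They are from RefSeq (GRCm38.p6), run from 250 bases before to 50 bases after the annotated start, and are written 5′ to 3′ on the strand of the gene. The Glp1r stretch is chr17:30901617-30901916 on the plus strand, that of Irs1 chr1:82291390-82291689 on the minus strand, and that of Socs3 chr11:117969317-117969616 on the minus strand. Capitals mark the only match to TGACG, the core of a cAMP response element, in Irs1, which reads CGTCA on the printed strand, and the only match to the STAT motif TTCNNNGAA in Socs3.
Glp1r: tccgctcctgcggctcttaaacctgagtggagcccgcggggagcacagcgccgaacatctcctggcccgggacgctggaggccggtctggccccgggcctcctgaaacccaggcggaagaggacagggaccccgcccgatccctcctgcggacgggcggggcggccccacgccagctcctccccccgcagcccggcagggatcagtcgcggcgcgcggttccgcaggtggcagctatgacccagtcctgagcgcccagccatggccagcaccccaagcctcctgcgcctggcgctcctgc
Irs1: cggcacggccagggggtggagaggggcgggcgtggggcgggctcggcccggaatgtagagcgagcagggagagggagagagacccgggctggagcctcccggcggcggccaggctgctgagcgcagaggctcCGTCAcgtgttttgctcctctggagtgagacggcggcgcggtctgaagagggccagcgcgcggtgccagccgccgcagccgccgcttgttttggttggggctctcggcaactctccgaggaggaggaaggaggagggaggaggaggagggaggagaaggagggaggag
Socs3: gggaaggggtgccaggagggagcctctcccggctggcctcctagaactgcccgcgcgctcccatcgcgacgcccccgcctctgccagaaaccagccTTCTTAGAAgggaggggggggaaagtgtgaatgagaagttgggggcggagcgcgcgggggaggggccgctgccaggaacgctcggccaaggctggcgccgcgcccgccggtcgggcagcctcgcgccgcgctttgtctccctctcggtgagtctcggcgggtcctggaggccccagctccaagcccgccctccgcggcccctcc

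The motifs were searched on both strands in 10 RefSeq promoters of 9 members, Lepr having 2 starts, with Insr not in the table. The STAT motif was found in Socs3 alone, 154 bases before the start, and 8.3% of 32851 mouse promoters hold it. The core TGACG was found in Irs1 alone, 118 bases before the start, and 20.8% of promoters hold it. The full cAMP response element TGACGTCA, present in 1.79% of promoters, and the FOXO motif GTAAACA, present in 3.65%, were found in no member. Each TGACGTCA also contains TGACG. The 3 printed stretches were GC-rich, at 73.7% for Glp1r, 71.3% for Irs1 and 73.3% for Socs3, against a median of 52.7% over all promoters.

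Levels of different genes were compared per length with the deposited FPKM (fragments per kilobase and per library size). Among the receptors, Insr averaged 4.41 ± 0.151 FPKM and Glp1r 4.22 ± 1.12 FPKM over the 9 libraries (SD, n = 9). Ghsr averaged 1.97 ± 0.159 FPKM and Lepr 1.40 ± 0.821 FPKM. Insr was above Glp1r in 5 of 9 libraries, and their order differed by group. Glp1r was the higher in all HA libraries, at 5.26 to 5.70 FPKM against 4.36 to 4.46 FPKM for Insr. In all LP libraries Insr was the higher, at 4.22 to 4.72 FPKM against 2.53 to 3.95 FPKM for Glp1r, and in HP the order varied. Ghsr was above Lepr in 7 of 9 libraries, all but HA replicate 3 and LP replicate 3. Neither pair of neighbours thus kept 1 order over all 9 libraries.

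Irs2 had the highest level of the 10 genes, at 17.4 ± 0.71 FPKM, and was above Jak2, the next, in 9 of 9 libraries. Jak2 stood at 10.2 ± 0.451 FPKM and Stat3 at 9.70 ± 0.708 FPKM, and their order differed between libraries, with Jak2 higher in 6 of 9. Ptpn1 averaged 8.10 ± 0.354 FPKM, Irs1 2.24 ± 0.283 FPKM and Socs3 1.26 ± 0.331 FPKM. Irs1 was above Ghsr in 7 of 9 libraries, and Lepr above Socs3 in 4 of 9. Among all tested genes Irs2 lay at percentile 82.1 and Socs3 at percentile 25.6. The order of levels rests on the deposited gene lengths, and that of Glp1r was 1480 bases, against 5811 exonic bases in GENCODE M21. Glp1r was the only member whose deposited position differed from that annotation, so its place beside Insr depends on the shorter model.

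**Figure D2:**
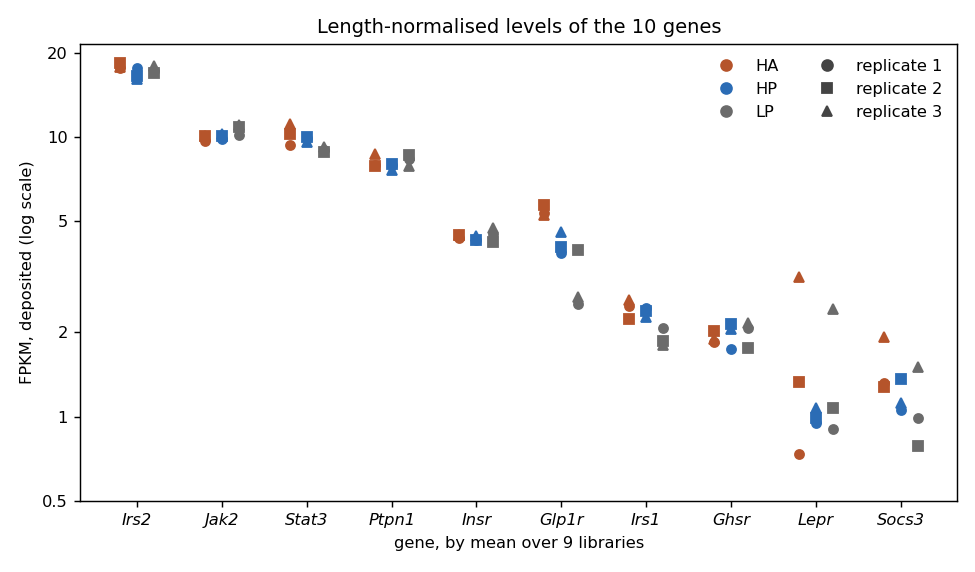
Deposited FPKM of the 10 genes in each library on a log axis, ordered by the mean over 9 libraries, with HA, HP and LP in 3 colours and the replicate number as symbol. Irs2 leads at a mean of 17.4 FPKM, Socs3 comes last at 1.26 FPKM, and the points of Lepr span 0.736 to 3.15 FPKM.

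Paralogues and partners of the 10 genes set these levels in context. Irs4, an IRS adaptor gene on the X chromosome with prominent expression in the hypothalamus, averaged 25.3 FPKM over the 9 libraries, above Irs2, and Irs3 0.0978 FPKM. Jak1 averaged 21.9 FPKM and Tyk2 1.98 FPKM beside the 10.2 FPKM of Jak2. Of the STAT genes used by cytokine receptors, Stat5b averaged 19.03 FPKM and Stat5a 0.552 FPKM. Of the SOCS family, 3 other genes were listed and were also low, with 0.976 FPKM for Socs1, 0.827 FPKM for Socs2 and 0.621 FPKM for Cish. Mrap2, whose product is an accessory protein of the ghrelin receptor, averaged 19.6 FPKM against 1.97 FPKM for Ghsr. The receptor genes nearest to Glp1r were much lower, at 0.308 FPKM for Gipr, 0.114 FPKM for Glp2r and 0.0565 FPKM for Gcgr.

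Transcripts of the hormones themselves were scarce or not detected. Lep, Ins1 and Gip had 0 counts in all 9 libraries, which allows at most 0.138 to 0.167 CPM per library at a limit of 3 counts, for counting error only. Ins2 had 3 counts and Gcg, the precursor gene of GLP-1, 9 counts over all 9 libraries together. Ghrl, the ghrelin gene, was low but present, with 1.52, 1.71 and 0.959 CPM in HA, 2.34, 2.28 and 2.09 CPM in HP, and 1.997, 2.46 and 0.914 CPM in LP. The Ghrl libraries of HA lay below those of HP (log2 fold change -0.68, SE 0.34, adjusted p = 0.84, edgeR). Ghrl shares 169 exonic bases with Gm44033 on the other strand, and without strand information their reads cannot be told apart.

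Glp1r (ENSMUSG00000024027, chromosome 17, 30901867 to 30936510 on the plus strand, as deposited, protein-coding) encodes the GLP-1 receptor, the target of the incretin drugs that lower food intake. It stood at 7.92, 8.45 and 7.83 CPM in HA, 5.73, 6.01 and 6.80 CPM in HP, and 3.75, 5.87 and 3.98 CPM in LP. All HA libraries were above all HP and all LP libraries, while LP replicate 2 lay within the range of HP. The summed arcuate markers also lay apart between HA and LP, at 262 to 327 CPM in HA, 232 to 308 CPM in HP and 233 to 257 CPM in LP. In the mean log2 deviation of the list, where each gene counts equally, HA (-0.069 to 0.28) and LP (-0.17 to -0.015) overlapped. Among these markers Pomc, the melanocortin precursor gene, stood at 63.5, 85.9 and 87.5 CPM in HA, 52.0, 79.3 and 59.1 CPM in HP, and 51.8, 50.03 and 48.3 CPM in LP. Cartpt also lay apart between HA and LP, while Agrp, Npy, Tac2, Ghrh, Tbx3 and Isl1 overlapped, and Kiss1 was at 0 in all libraries. Summed pituitary markers also lay apart, at 23.1 to 50.2 CPM in HA and 15.8 to 21.8 CPM in LP, with HP at 14.6 to 29.1 CPM. In the mean log2 deviation of that list HA (-0.40 to 1.37) and LP (-0.16 to 0.35) overlapped. The part of arcuate or pituitary tissue in the level of Glp1r was not tested. Counts behind the Glp1r values were 147 to 172 in HA, 103 to 130 in HP and 74 to 124 in LP.

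In HA against LP the log2 fold change of Glp1r was 0.83 (SE 0.18, 95% interval 0.44 to 1.22), with an unadjusted p that ranked 24th of 17546 genes and an adjusted p of 0.572 (edgeR). DESeq2 gave the same size, 0.83 (SE 0.21), with an adjusted p of 0.0362. The DESeq2 call was kept without LP replicate 2 (adjusted p = 0.0138, with 0.124% of all genes called) and on the edgeR-filtered genes (adjusted p = 0.0413, with 0.199% called), and lost without any other single library (adjusted p 0.106 to 0.441). It was also lost with the replicate number as a block (adjusted p = 0.218). The estimate itself stayed between 0.70 and 1.06 in all of the alternatives run.

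In HA against HP the log2 fold change of Glp1r was 0.38 (SE 0.17, 95% interval -0.0021 to 0.77, adjusted p = 0.84, edgeR). Within code Hg43, 2 HA libraries at 7.92 and 8.45 CPM stood against 2 HP libraries at 5.73 and 6.01 CPM, and within Hg13 1 library each gave 7.83 CPM in HA and 6.80 CPM in HP. With the code as a term in a fit to these 6 libraries the log2 fold change was 0.39 (SE 0.13, adjusted p = 0.755). In HP against LP it was 0.44 (SE 0.18, 95% interval 0.052 to 0.84, adjusted p = 0.807). Without LP replicate 2 it was 0.68 (SE 0.14, adjusted p = 0.49), and leaving out any other library gave 0.32 to 0.50. Of the 10 genes, 4 did not overlap between HA and LP (Glp1r, Irs1, Stat3 and Jak2), 3 of them higher in HA, next to 10.9% of all genes in either direction and 5.4% higher in HA. Glp1r alone did not overlap between HA and HP, next to 11.8% of all genes in either direction and 5.92% higher in HA. Irs1 and Stat3 did not overlap between HP and LP, both higher in HP, next to 11.8% of all genes in either direction and 5.93% higher in HP.

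Irs1 (ENSMUSG00000055980, chromosome 1, 82233101 to 82291416 on the minus strand) encodes an adaptor of the insulin and IGF-1 receptors. It stood at 22.9, 20.4 and 24.1 CPM in HA, 22.5, 21.8 and 20.9 CPM in HP, and 18.9, 17.1 and 16.5 CPM in LP. All 6 libraries from pups of high-fat dams were above all 3 LP libraries, and HA and HP overlapped. The log2 fold change was 0.36 (SE 0.088, 95% interval 0.16 to 0.55, adjusted p = 0.645) in HA against LP, 0.048 (SE 0.087, adjusted p = 0.935) in HA against HP, and 0.31 (SE 0.088, 95% interval 0.11 to 0.51, adjusted p = 0.683) in HP against LP. With both libraries high in meningeal markers left out it was 0.27 in each comparison with LP. Irs1 shares 2822 exonic bases, 30.9% of its own, with Gm9747 on the other strand, which had 0 counts, and whether reads there were counted for Irs1 is not given in the sources used here.

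Irs2 (chromosome 8, 10984681 to 11008458), the other main IRS adaptor gene and a known FOXO target, held a steady level. It stood at 112, 116 and 113 CPM in HA, 112, 105 and 102 CPM in HP, and 109, 108 and 113 CPM in LP. The groups overlapped in each comparison. The log2 fold change was 0.046 (SE 0.044) in HA against LP, 0.097 (SE 0.044) in HA against HP and -0.051 (SE 0.044) in HP against LP (edgeR, adjusted p between 0.84 and 0.897). The 95% intervals bounded the size of any Irs2 difference to log2 values between -0.15 and 0.20.

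Insr (chromosome 8, 3122061 to 3279617), the insulin receptor gene, ranged from 60.1 to 61.6 CPM in HA, 59.05 to 61.0 CPM in HP and 58.3 to 65.05 CPM in LP. Its log2 fold change was -0.018 (SE 0.050) in HA against LP, 0.031 (SE 0.051) in HA against HP and -0.049 (SE 0.051) in HP against LP. The 95% intervals lay within -0.16 and 0.14. The gene varied least of the 10, with a highest library 1.12 times the lowest.

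Ptpn1 (chromosome 2, 167932057 to 167979385), the gene of the phosphatase PTP1B, ranged from 43.8 to 48.3 CPM in HA, 42.4 to 44.3 CPM in HP and 43.5 to 47.8 CPM in LP. The groups overlapped, and the 3 log2 fold changes lay between -0.072 and 0.059 (edgeR, adjusted p between 0.877 and 0.977).

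Ghsr (chromosome 3, 27371351 to 27378010), the ghrelin receptor gene of arcuate and other neurons, stood at 8.20, 8.98 and 8.42 CPM in HA, 7.79, 9.49 and 9.15 CPM in HP, and 9.20, 7.82 and 9.62 CPM in LP. The HA libraries lay within the range of both other groups. Its log2 fold change was -0.058 (SE 0.12) in HA against LP, -0.047 (SE 0.12) in HA against HP and -0.011 (SE 0.12) in HP against LP (edgeR, adjusted p between 0.95 and 0.993). The 95% intervals reached from -0.33 to 0.27, so changes smaller than these bounds were not resolved with 3 libraries per group.

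**Figure D3:**
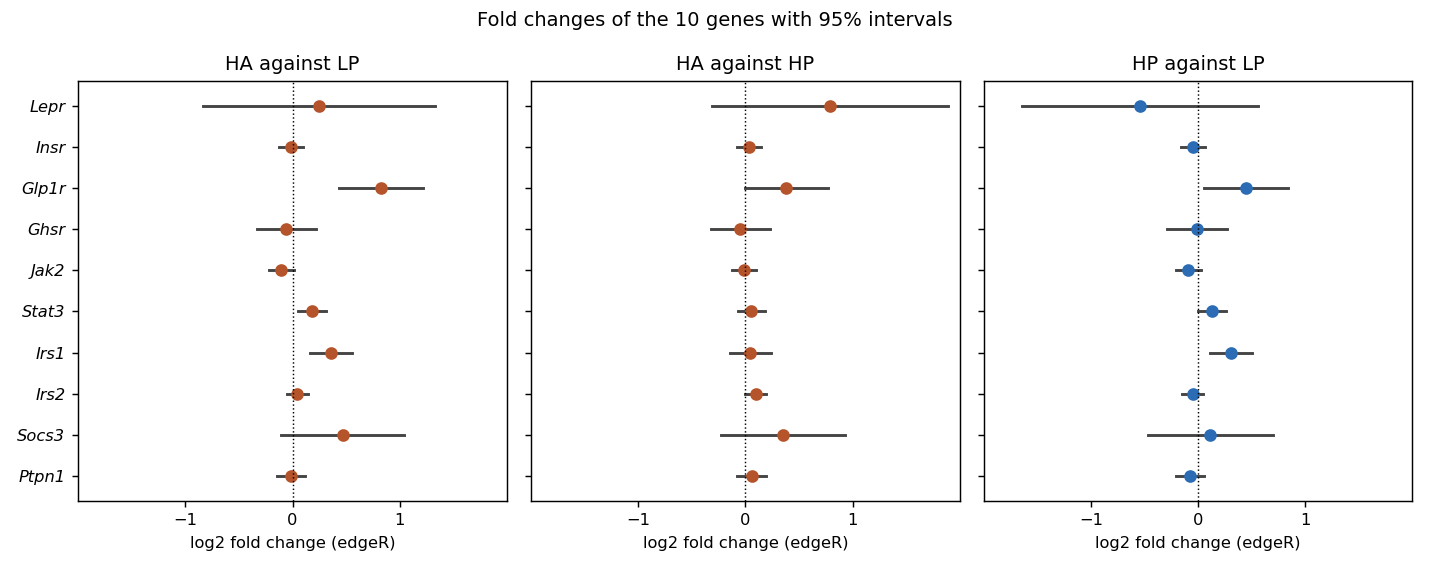
Log2 fold changes of the 10 genes from the edgeR fit (points) with 95% intervals (lines) in HA against LP, HA against HP and HP against LP, with a dotted line at 0. Glp1r in HA against LP, at 0.83, lies farthest from 0 among intervals that do not reach it, and the intervals of Lepr are the widest, from -1.64 to 0.56 in HP against LP.

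Lepr (ENSMUSG00000057722, chromosome 4, 101717404 to 101815352 on the plus strand) encodes the leptin receptor, which signals from arcuate neurons in its long form and is also made in vessels and meninges, largely in short forms. The count table gives 1 value for the gene, so the long and short forms were not told apart. Lepr stood at 5.20, 9.41 and 22.4 CPM in HA, 6.73, 6.998 and 7.58 CPM in HP, and 6.38, 7.63 and 17.1 CPM in LP. HA replicate 3 and LP replicate 3 were above all others, and they were the 2 libraries highest in meningeal markers. Among the other 7 libraries Lepr stayed between 5.20 and 9.41 CPM. The log2 fold change was 0.25 (SE 0.49, adjusted p = 0.944) in HA against LP, 0.79 (SE 0.50, adjusted p = 0.84) in HA against HP and -0.54 (SE 0.50, adjusted p = 0.904) in HP against LP.

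Without HA replicate 3 and LP replicate 3 the log2 fold change of Lepr was 0.055 (SE 0.24) in HA against LP, 0.034 (SE 0.22) in HA against HP and 0.021 (SE 0.22) in HP against LP. Without HA replicate 3 alone it was -0.51 (SE 0.39) in HA against LP and 0.037 (SE 0.39) in HA against HP. Without LP replicate 3 alone it was 0.82 (SE 0.48) in HA against LP and 0.021 (SE 0.48) in HP against LP. All 13 meningeal markers were detected, and the mean log2 deviation of the list was 2.55 in HA replicate 3 and 1.8 in LP replicate 3, against -1.05 to 0.11 elsewhere. Markers of the choroid plexus, another site of Lepr, summed to 66.8 to 83.5 CPM with Ttr at 2.58 CPM or less. Their mean log2 deviation was highest in the same pair, 0.48 in HA replicate 3 and 0.48 in LP replicate 3, against -0.24 to -0.021 elsewhere. The members of this list did not move together. Kcnj13 (3.62 CPM in HA replicate 3, 2.31 CPM in LP replicate 3, 0 to 0.418 CPM elsewhere) and Kl were highest in that pair. Clic6 (14.0 CPM), Prlr (30.7 CPM) and Folr1 (0.323 CPM) were instead at their lowest in LP replicate 3. Markers of endothelium and mural cells summed to 493 CPM in HA replicate 3, 401 CPM in LP replicate 3 and between 342 and 408 CPM elsewhere. The part of these cell types in the level of Lepr was not tested.

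**Figure D4:**
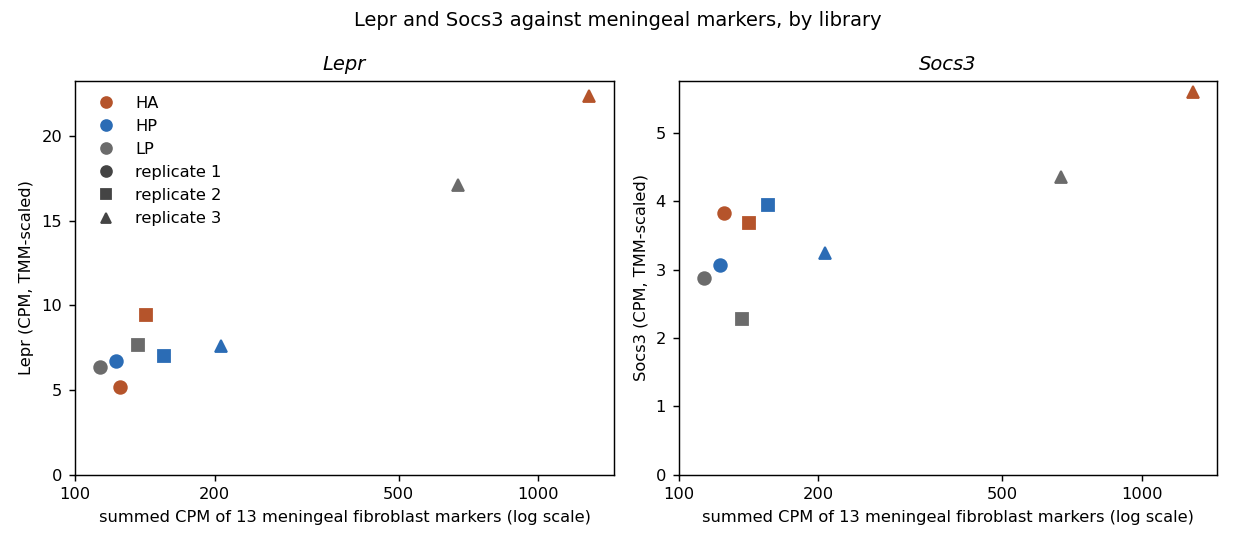
Lepr and Socs3 in CPM (linear axes from 0) against the summed CPM of 13 meningeal fibroblast markers (log axis), 1 point per library, coloured by group with the replicate number as symbol. HA replicate 3 at 1291 CPM of markers and LP replicate 3 at 670 CPM have the highest Lepr values, 22.4 and 17.1 CPM, and the highest Socs3 values, 5.59 and 4.35 CPM.

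Jak2 (chromosome 19, 29251828 to 29313080), the kinase gene of the leptin receptor, stood at 48.8, 50.96 and 51.02 CPM in HA, 49.5, 50.9 and 51.8 CPM in HP, and 51.4, 54.8 and 55.8 CPM in LP. All HA libraries were below all LP libraries. The log2 fold change was -0.10 (SE 0.051, adjusted p = 0.791) in HA against LP, -0.014 (SE 0.051, adjusted p = 0.98) in HA against HP and -0.09 (SE 0.051, adjusted p = 0.857) in HP against LP. It was negative in HA against LP and in HP against LP under each alternative run.

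Stat3 (chromosome 11, 100885098 to 100939540 on the minus strand), the transcription factor gene downstream of JAK2, stood at 89.5, 98.1 and 106 CPM in HA, 95.1, 95.6 and 91.6 CPM in HP, and 86.0, 84.7 and 87.8 CPM in LP. All 6 libraries of HA and HP were above all LP libraries, and the highest was HA replicate 3. The log2 fold change was 0.18 (SE 0.059, 95% interval 0.054 to 0.31, adjusted p = 0.697) in HA against LP, 0.058 (SE 0.058, adjusted p = 0.875) in HA against HP and 0.13 (SE 0.059, 95% interval -0.0039 to 0.26, adjusted p = 0.816) in HP against LP. Without HA replicate 3 and LP replicate 3 the value in HA against LP was 0.14 (SE 0.059). Stat3 shares 72 exonic bases with Stat5a on the other strand, 0.756% of its own.

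Socs3 (chromosome 11, 117966079 to 117970047 on the minus strand) is the feedback inhibitor gene whose RefSeq promoter carries the STAT motif printed above. The printed stretch, 117969317 to 117969616, lies inside the gene as deposited, which begins farther upstream. Socs3 had the lowest mean FPKM over the 9 libraries, although Lepr was the lower of the pair in 5 of 9. Socs3 stood at 3.82, 3.69 and 5.59 CPM in HA, 3.06, 3.94 and 3.24 CPM in HP, and 2.87, 2.27 and 4.35 CPM in LP, from 48 to 105 counts per library. HA replicate 3 and LP replicate 3 were again the highest libraries, and the groups overlapped. The log2 fold change was 0.47 (SE 0.26, 95% interval -0.11 to 1.04, adjusted p = 0.813) in HA against LP, 0.35 (SE 0.26, adjusted p = 0.844) in HA against HP and 0.11 (SE 0.26, adjusted p = 0.966) in HP against LP. Without LP replicate 3 the estimate was 0.76 (SE 0.25) in HA against LP and 0.41 (SE 0.25) in HP against LP. Without HA replicate 3 it was 0.25 in HA against LP and 0.14 in HA against HP. With both left out it was 0.55 in HA against LP, 0.14 in HA against HP and 0.41 in HP against LP.

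Across the 9 libraries, 3 members ranged over more than 2-fold, and the genes with the most similar profiles were listed for them by the root mean square difference of mean-centred log2 CPM among 1613 candidates. For Lepr the nearest were Tgfbi, Ptgs2, Bicc1, Anxa3 and Col12a1, with differences of 0.17 to 0.18 against an SD of 0.69 for Lepr itself. Col12a1, a collagen gene, stood at 31.0 CPM in HA replicate 3, 21.9 CPM in LP replicate 3 and between 8.10 and 10.7 CPM elsewhere. For Glp1r the nearest was Pcdha11, a protocadherin gene, with a difference of 0.10 against an SD of 0.41, followed by Irak4, Recql4, Mfng and Brca1 with 0.20 to 0.23. Pcdha11 stood at 4.47, 4.97 and 4.31 CPM in HA, 3.78, 3.99 and 3.76 CPM in HP, and 2.09, 3.41 and 2.10 CPM in LP. Pcdha11 belongs to a cluster of closely related genes, so its count is uncertain. For Socs3 the nearest were Gpc6, Rdm1, Bmp4, Atp2a3 and Rhoj, with 0.13 to 0.16 against an SD of 0.36.

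The rest of the 4 pathways was described with 101 genes in 4 lists, of which 92 had enough counts to be tested. EdgeR called 0 of them in each of the 3 comparisons, and so did DESeq2 and limma-voom. The shares called over all genes were 0% to 0.0114% for edgeR and for limma-voom, and 0.0597% to 0.176% for DESeq2, so a count of 0 among 92 is near the background. An unadjusted p under 0.05 was reached by 6 of 92 in HA against LP, 5 of 92 in HA against HP and 4 of 92 in HP against LP, against 6.51%, 5.42% and 6.12% of all tested genes. Estimates were higher for 45 of 92 in HA against LP, 44 of 92 in HA against HP and 46 of 92 in HP against LP, next to 51.9%, 50.9% and 49.1% of all genes.

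Of the leptin list, 17 of 18 genes were tested, with a median log2 fold change of 0.047 in HA against LP, 0.015 in HA against HP and 0.044 in HP against LP. The medians of all genes were 0.0057, 0.0027 and -0.0024. Cish and Socs2, feedback inhibitors of cytokine receptors that signal through STAT5, had the largest estimates in HA against HP. Cish stood at 4.51, 4.60 and 4.90 CPM in HA, 3.17, 3.99 and 3.29 CPM in HP, and 3.36, 3.46 and 4.68 CPM in LP. Its estimate was 0.42 (log2, SE 0.17, adjusted p = 0.84, edgeR) in HA against HP, where the groups did not overlap, while LP replicate 3 lay within the range of HA. Socs2 averaged 9.25 ± 1.71 CPM in HA and 7.13 ± 0.816 CPM in HP (SD, n = 3 each). Ptpn11, which encodes the phosphatase SHP2 that binds the leptin receptor, averaged 284 ± 1.94 CPM in HA, 304 ± 8.17 CPM in HP and 289 ± 2.2 CPM in LP. Leprot, which regulates surface levels of the leptin receptor, averaged 39.2 ± 4.56 CPM in HA, 41.4 ± 3.16 CPM in HP and 36.2 ± 1.57 CPM in LP, and its exons share no bases with those of Lepr.

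Of the insulin list, 40 of 43 genes were tested, with medians of 0.0043, -0.0058 and -0.0054 in HA against LP, HA against HP and HP against LP. Irs4 stood at 162, 166 and 182 CPM in HA, 160, 178 and 156 CPM in HP, and 162, 128 and 148 CPM in LP. All HA libraries were above all LP libraries by a margin under 1 CPM, and the log2 estimate was 0.22 (SE 0.085, adjusted p = 0.756, edgeR). Foxo6, a transcription factor gene inhibited by AKT, averaged 9.65 ± 0.127 CPM in HA, 10.1 ± 1.98 CPM in HP and 12.5 ± 2.17 CPM in LP. Its highest libraries were LP replicate 2 at 14.4 CPM and LP replicate 1 at 13.004 CPM, the same pair that was highest in striatal markers. Pik3r3, a regulatory subunit gene of phosphatidylinositol kinase, averaged 107 ± 6.5 CPM in HP and 96.02 ± 7.64 CPM in LP, and Phlpp1, an AKT phosphatase gene, 107 ± 1.14 CPM in HA and 114 ± 2.39 CPM in HP. Pik3r3 shares 1289 exonic bases, 24.3% of its own, with Gm49337 on the same strand, which had 0 counts. Whether reads there were counted for Pik3r3 is not given in the sources used here. Insrr, an insulin receptor relative, had the widest estimates and followed the meningeal markers, at 6.66 CPM in HA replicate 3, 4.19 CPM in LP replicate 3 and no more than 0.83 CPM elsewhere.

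Of the GLP-1 list, 18 of 21 genes were tested, with medians of -0.032, -0.032 and -0.00014. Adcy5, an adenylyl cyclase gene that is abundant in the striatum, had the smallest p of all 92 in HP against LP. It stood at 257, 277 and 292 CPM in HA, 271, 261 and 272 CPM in HP, and 311, 332 and 289 CPM in LP, and the log2 estimate was -0.21 (SE 0.059, adjusted p = 0.678, edgeR) in HP against LP. The 2 libraries highest in Adcy5 were LP replicates 1 and 2, which were also highest in striatal markers, and the part of striatal tissue in these genes was not tested. Crtc1, a coactivator of CREB, averaged 121 ± 2.03 CPM in HA, 127 ± 8.33 CPM in HP and 136 ± 10.2 CPM in LP, and it too was highest in LP replicates 1 and 2, at 138 and 145 CPM. Rapgef4, which encodes a cyclic AMP sensor, averaged 107 ± 5.8 CPM in HA and 123 ± 9.26 CPM in LP, with its highest value, 133 CPM, in LP replicate 2. Dpp4, the peptidase gene that inactivates GLP-1, stood at 12.6 CPM in HA replicate 3, 4.89 CPM in LP replicate 3 and no more than 2.83 CPM elsewhere, and thus was also highest where meningeal markers were highest.

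Of the ghrelin list, 17 of 19 genes were tested, with medians of -0.0071, 0.023 and -0.0007. Gpr83, a receptor gene whose product pairs with the ghrelin receptor in mice, stood at 40.5, 48.8 and 38.6 CPM in HA, 36.2, 42.8 and 37.3 CPM in HP, and 48.5, 46.0 and 47.0 CPM in LP. All HP libraries were below all LP libraries (log2 fold change -0.28, SE 0.093, adjusted p = 0.758, edgeR), and HA overlapped both. Mrap2 averaged 44.7 ± 3.68 CPM in HA, 42.8 ± 2.01 CPM in HP and 45.7 ± 2.2 CPM in LP. Prkaa2, a catalytic subunit gene of the energy sensor AMPK, averaged 37.5 ± 1.52 CPM in HA, 34.8 ± 2.21 CPM in HP and 37.2 ± 2.04 CPM in LP.

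**Figure D5:**
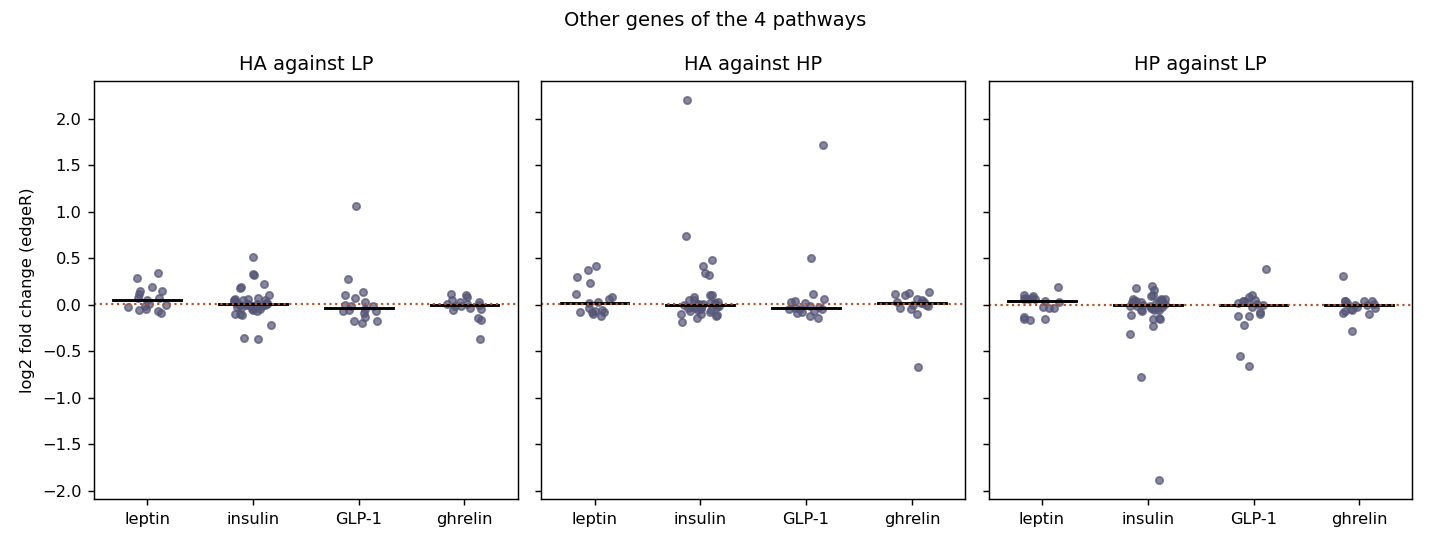
Log2 fold changes (edgeR) of the 92 tested genes of the leptin, insulin, GLP-1 and ghrelin lists in HA against LP, HA against HP and HP against LP, 1 point per gene, with the list median as a black line and the median of all genes as a dotted line. Medians lie between -0.032 and 0.047. Insrr, the point farthest from 0 in HA against HP (2.20) and in HP against LP (-1.89), is high in HA replicate 3 and LP replicate 3.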

How the data were processed

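The authors deposited read counts per gene, whole numbers and not normalized, and FPKM values, which divide counts by gene length and library size, for 9 libraries. Per the submitters' processing notes, the tools were featureCounts 1.5.0-p3, HISAT2 2.0.5 and DESeq2 1.16.1, and the build mm9. Of 54409 identifiers shared with GENCODE M21, 98.3% had the same start and end, so coordinates were read as GRCm38. The kit was NEBNext Ultra with 3 µg of RNA, per the labels' protocols, and strand is not given in the sources used here.

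Counts were tested with edgeR 4.0.16 in R 4.3.3 (filterByExpr, which kept 17546 genes and all 10 members, TMM, quasi-likelihood F test on all 9 libraries, group as the only term, two-sided). Benjamini-Hochberg adjustment covered every tested gene, and calls needed an adjusted p under 0.05. SE is the estimate's size over the square root of F, and 95% intervals use the t distribution. DESeq2 1.42.0 and limma 3.58.1 (voom), RLE or library-total scaling, no filter, a replicate block and leaving out libraries were alternatives. The script was tested on simulated data. FPKM were used for levels only. An exact permutation test of 3 against 3 cannot go below 0.1 and was not used.

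Named genes were all 10 members, the genes of smallest p in each pathway list (up to 4 per comparison), and the 5 nearest profiles of members that ranged over 2-fold. Values are given for part of them. Members and lists were chosen with earlier results of these data known. Separate litters are not stated, and p-values reflect only how far these libraries vary, which may be technical. Within groups chi-square per degree of freedom was 4.73 to 25.8, so no pair was a duplicate. Deviations from group means correlated between same-numbered libraries of HA and LP (0.26, 0.14 and 0.49), but not in each pair of the other comparisons. Unlike numbers also correlated, at 0.25 for HA replicate 2 with LP replicate 1 and 0.18 for HA replicate 1 with LP replicate 2. The numbers are not stated to pair samples, so the main fit did not pair libraries and the replicate block was an alternative.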

Additional observations from a re-analysis of the deposited data

How the results depend on the processing

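Over all genes, edgeR called 2 in HP against LP, 2 in HA against HP and 0 in HA against LP. In HA against LP the count was 41 without a filter on low counts, 25 with DESeq2, 23 without HA replicate 3 and LP replicate 3, and 1 in a fit to these 6 libraries. In HA against HP it was 5 without a filter, 7 with DESeq2 and 10 without the same pair. In HP against LP it was 1 with library totals, 53 without a filter, 32 with DESeq2, 37 without the pair and 4 in a fit to these 6 libraries. Leaving out 1 library at a time gave 0 to 14 genes in HA against LP, 1 to 9 in HA against HP and 1 to 21 in HP against LP. The cause was not tested.

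With the replicate number as a block, edgeR called 4 genes in HP against LP and no member in any comparison, and Glp1r in HA against LP was at 0.84 (adjusted p = 0.493). Members called in HA against LP were 1 with DESeq2, and, in alternatives chosen after seeing the data, 1 with DESeq2 on the edgeR-filtered genes (0.199% of all genes called) and 1 with DESeq2 without LP replicate 2 (0.124%), each time Glp1r. Leaving out the other libraries singly gave 0 with DESeq2, where 0.0367% to 0.567% of all genes were called.

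Estimates that changed sign were of genes not called. With library totals, Ptpn1 was 0.0016 in HA against LP and Jak2 0.0061 in HA against HP. Without HA replicate 3 and LP replicate 3, Insr was 0.016 and Ghsr 0.016 in HA against LP, Stat3 -0.0011 in HA against HP, and Lepr 0.021 and Ghsr 0.051 in HP against LP. Leaving out 1 library at a time gave, in HA against LP, -0.51 to 0.82 for Lepr, -0.059 to 0.014 for Ptpn1, -0.062 to 0.024 for Insr and -0.15 to 0.0073 for Ghsr. In HA against HP it gave -0.13 to 0.013 for Ghsr, -0.036 to 0.0033 for Jak2 and -0.00099 to 0.11 for Stat3, and in HP against LP -0.095 to 0.072 for Ghsr, -0.079 to 0.41 for Socs3 and -0.80 to 0.021 for Lepr. Depth was lowest for Socs3, with 48 to 105 counts per library.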
